A study of Mus musculus with 24 samples.

Results

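The 38 genes described here encode nuclear subunits of respiratory complex I, the NADH:ubiquinone oxidoreductase of the inner mitochondrial membrane. They were chosen from the 24079 genes of the count table as the rows whose symbol starts with Nduf, goes on with a, b, c, s, v or ab and a number, and does not start with Ndufaf, the prefix of the assembly factors. No measured value entered the choice. Of the 38, 7 encode core subunits, 29 encode accessory subunits, and 2 (Ndufa4 and its paralogue Ndufa4l2) are kept apart because NDUFA4 is now counted with complex IV.

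Complex I takes electrons from NADH, passes them along a chain of iron-sulfur clusters to ubiquinone and pumps protons across the membrane. Its core subunits carry the chemistry and have bacterial relatives, while the accessory subunits surround them and are needed for assembly and stability. Neurons, including the medium spiny neurons that make up most of the striatum, depend heavily on this oxidative route, and the core proton pumps themselves are encoded by mitochondrial DNA and translated inside the organelle. The mitochondrially encoded subunits were not analysed here, so all members are mRNAs read by cytosolic ribosomes.

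Tissue came from 2 striatal regions, the accumbens nucleus (Acb) and dorsal striatum (DS), of rpS6P-/- knockin mice, in which every phosphorylatable serine of ribosomal protein S6 is replaced by alanine, and of wild-type littermates with unaltered rpS6. The knockin is constitutive and not limited to a cell type, the mice had a mixed C57Bl/6/Sv129/ICR background, males and females were used, and no age is given for these libraries. RNA of the whole lysate (total) and of heavy polysomal fractions was sequenced as poly(A) libraries, from lysates of pooled mice. The labels define heavy fractions by more than 4 ribosomes. The 2 regions, 2 genotypes and 2 kinds of RNA make 8 groups of 3 biological replicates, 24 libraries in all.

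Libraries held 11109431 to 34703044 reads assigned to genes in heavy fractions and 9280589 to 20259509 in total RNA, of which 69045 to 260426 and 34170 to 74448 fell on the members. Levels are given as CPM, read counts divided by the library size that edgeR's TMM factors give over all 24 libraries. The point mutations of the knockin are not visible in gene counts, and Rps6 itself was read at 270 to 488 CPM in all libraries. Summed over 9 markers, medium spiny neuron transcripts stood at 3950 to 7240 CPM, with no marker absent from any group. Cortical excitatory neuron markers were summed to 65.3 to 209 CPM in the Acb and 741 to 1010 CPM in the DS. The heavy library of Acb rpS6P-/- replicate 3 stood apart: the members' median level there was -1.14 (log2) from the mean of the 12 heavy libraries, against -0.31 and -0.39 in the other 2 of its group. In these tissue lysates, fewer cells of a type and less RNA per cell cannot be told apart.

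The coding sequence of a member is short as a rule: the median over the 38 members was 436.5 bases, from 213 in Ndufa1 to 2184 in Ndufs1 (longest protein-coding transcript, GENCODE M21, GRCm38). Members were therefore split at that median into 19 short and 19 long ones. The transcript annotated as principal has 351 coding bases for Ndufs6, 432 for Ndufa11 and 561 for Ndufb8, where 297, 351 and 474 were used. Ndufs6 is thus under 300 bases only by its longest transcript. The coding sequences of 3 short members are shown because the results turn on them. Ndufa3 (chr7:3617373-3620327, plus strand) and Ndufa4 (chr6:11900292-11907497, minus strand) have nearly the same coding length, 255 and 249 bases, and lay at opposite ends of the loading order. Ndufa1 (chrX:37187588-37191163, minus strand) has the shortest coding sequence of all members, 70 codons. Capitals mark the start and stop codons.
Ndufa3: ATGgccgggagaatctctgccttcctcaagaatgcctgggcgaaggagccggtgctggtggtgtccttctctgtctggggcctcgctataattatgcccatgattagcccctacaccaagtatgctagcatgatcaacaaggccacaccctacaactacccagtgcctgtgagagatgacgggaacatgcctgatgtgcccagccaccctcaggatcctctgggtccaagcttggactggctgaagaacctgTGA
Ndufa4: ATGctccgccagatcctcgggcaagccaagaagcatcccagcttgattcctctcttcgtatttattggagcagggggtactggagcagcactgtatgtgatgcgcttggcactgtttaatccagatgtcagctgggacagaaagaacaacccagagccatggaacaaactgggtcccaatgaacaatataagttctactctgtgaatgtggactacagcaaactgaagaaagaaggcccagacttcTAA
Ndufa1: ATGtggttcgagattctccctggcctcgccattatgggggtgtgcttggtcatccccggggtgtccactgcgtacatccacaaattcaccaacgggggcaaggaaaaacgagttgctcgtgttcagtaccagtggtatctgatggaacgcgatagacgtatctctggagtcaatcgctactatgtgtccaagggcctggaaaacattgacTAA
The coding GC content was 55.7% in Ndufa3, 48.2% in Ndufa4 and 51.6% in Ndufa1.

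Polysome loading in wild-type mice was taken as the log2 ratio of heavy fractions to total RNA of the same region. It is relative to the trimmed mean of all genes and does not give the share of an mRNA that sat on polysomes. Most complex I mRNAs were enriched in heavy fractions. In the Acb, 22 of 37 members tested were higher in heavy fractions and 3 were lower (edgeR, adjusted p under 0.05), against 13.0% higher and 12.9% lower of the 16043 genes tested. In the DS, 27 were higher and 1 was lower, against 12.8% and 11.5% of 15614 genes. The members' median log2 loading was 0.64 in the Acb and 0.87 in the DS, where the median of all genes was 0.03 and 0.00. In the DS the 28 calls fell to 17 without wild-type replicate 3.

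**Figure D1:**
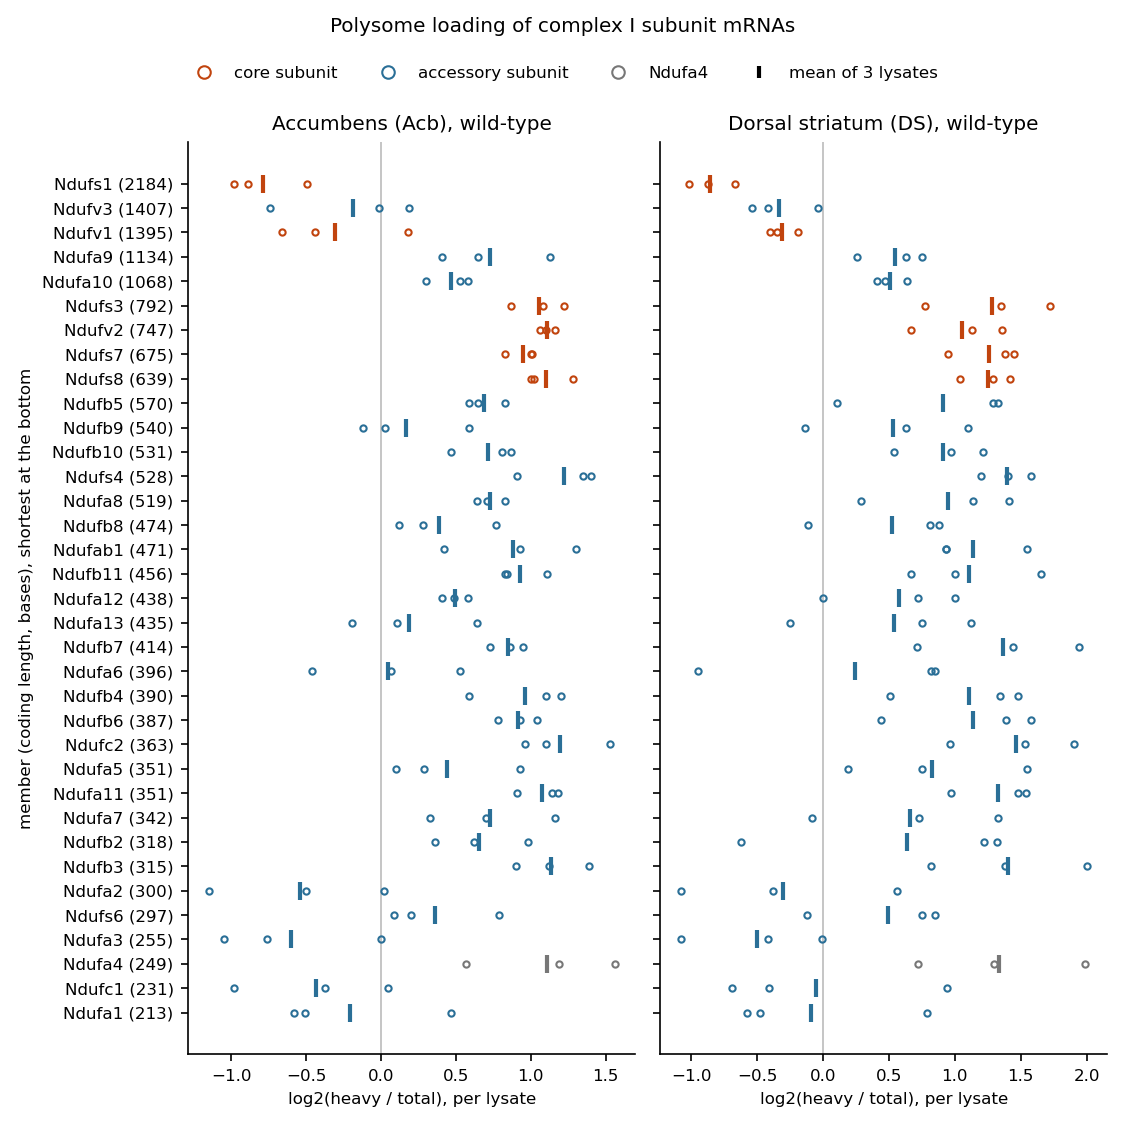
Loading of 35 members with enough reads in the 3 wild-type lysates of each region, as log2 of heavy over total CPM. Each open circle is a lysate, bars are means, and members are ordered by coding length from the shortest (Ndufa1, 213 bases) to the longest (Ndufs1, 2184 bases); members of middle length lie to the right of 0, and the means of Ndufa1, Ndufa2, Ndufa3, Ndufc1, Ndufs1, Ndufv1 and Ndufv3 lie to the left of it in both regions.

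Of the 4 core subunits of the ubiquinone-reducing module, which pass electrons on to ubiquinone, Ndufs8, Ndufs7 and Ndufs3 were among the best loaded. Log2 loading was 1.05 in the Acb and 1.26 in the DS for Ndufs8, 0.90 and 1.27 for Ndufs7, and 1.02 and 1.29 for Ndufs3, all of them called. Of the NADH-oxidizing module, Ndufv2 was called higher with 1.05 and 1.08. The flavin-binding subunit Ndufv1 had -0.34 and -0.32, neither of them called.

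Ndufs1, the largest iron-sulfur subunit of the NADH-oxidizing module, was the only member called lower in both regions in the unpaired edgeR test. With libraries paired by lysate, Ndufa3 was called lower in both as well. Pairing by lysate rests only on the shared replicate number, and deviations of paired libraries from the group means correlated by -0.0460 to 0.0767. The levels of Ndufs1 in wild-type Acb were 133, 137 and 145 CPM in total RNA and 67.6, 97.6 and 78.1 CPM in heavy fractions. In wild-type DS they were 143, 145 and 115 CPM in total RNA and 70.4, 79.2 and 72.4 CPM in heavy fractions. All heavy libraries were thus below all total libraries in both regions. The log2 loading was -0.83 ± 0.15 (SE) in the Acb and -0.86 ± 0.16 in the DS (edgeR, adjusted p = 2.08e-04 and 1.40e-04).

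The highest loading among accessory subunits belonged to Ndufs4, Ndufc2 and Ndufb3. Ndufs4, an accessory subunit at the base of the NADH-oxidizing module whose loss causes Leigh-like disease in mice, was read at 101, 108 and 118 CPM in total RNA of the wild-type Acb and at 258, 204 and 312 CPM in heavy fractions. In the DS its levels were 124, 115 and 113 CPM in total RNA and 372, 265 and 300 CPM in heavy fractions. The ranges were far apart in both regions. Its log2 loading was 1.19 ± 0.16 (SE, adjusted p = 3.40e-06) in the Acb and 1.41 ± 0.16 (adjusted p = 1.29e-07) in the DS. The membrane-arm subunits Ndufc2 and Ndufb3 had 1.13 ± 0.16 and 1.10 ± 0.16 in the Acb (adjusted p = 7.82e-06 and 1.55e-05). In the DS they had 1.48 ± 0.17 and 1.42 ± 0.19 (adjusted p = 2.05e-07 and 1.97e-06).

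The other Ndufb subunits, which build the distal part of the membrane arm, were enriched as well. Ndufb4, Ndufb6, Ndufb7 and Ndufb11 had 0.93, 0.87, 0.80 and 0.88 in the Acb and 1.16, 1.19, 1.40 and 1.12 in the DS, and all were called in both regions. Ndufb5, Ndufb10 and the low-count Ndufb2 had 0.64, 0.66 and 0.63 in the Acb and 0.96, 0.92 and 0.76 in the DS, again all called. Ndufb8 and Ndufb9, the latter a subunit with an LYR motif that binds acyl carrier protein, were called only in the DS, with 0.56 and 0.54, against 0.33 and 0.11 in the Acb. The difference between regions was called for neither.

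Among the Ndufa subunits the values spread widely. Ndufa11, a membrane-spanning subunit, had 1.03 in the Acb and 1.35 in the DS, and Ndufa8, a cysteine-rich subunit of the intermembrane face, had 0.67 and 0.96. Ndufa7 and Ndufa12, both of the arm that projects into the matrix, had 0.69 and 0.44 in the Acb and 0.73 and 0.57 in the DS. These 4 were called higher in both regions, as were Ndufa9 (0.68 and 0.54) and Ndufa10 (0.42 and 0.51), the 2 Ndufa members over 1000 bases, and Ndufab1, the mitochondrial acyl carrier protein (0.82 and 1.18).

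Ndufa5, Ndufa13 (also known as GRIM-19) and the zinc-binding Ndufs6 were called only in the DS, with 0.87, 0.58 and 0.54, where the Acb values were 0.40, 0.15 and 0.32. With libraries paired by lysate Ndufa5 was called in the Acb too (edgeR, adjusted p = 0.0370). Ndufa6, which like Ndufb9 has an LYR motif, was called in neither region (0.02 and 0.28). Ndufa4l2 was read at 0 to 6.93 CPM, too few reads for a fold change.

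Several of the shortest members were also on the low side. Ndufa3, a small membrane subunit, was read at 114, 151 and 136 CPM in total RNA of the wild-type Acb and 114, 88.8 and 65.5 CPM in heavy fractions. In the DS it stood at 124, 114 and 79.9 CPM in total RNA and 92.8, 53.9 and 79.2 CPM in heavy fractions. Its highest heavy library reached the lowest total library in the Acb, and the ranges overlapped in the DS. The log2 loading was -0.63 ± 0.17 (SE, adjusted p = 0.00746) in the Acb and -0.50 ± 0.19 (adjusted p = 0.0534, and 0.0172 with libraries paired by lysate) in the DS. Ndufa2, a subunit with a thioredoxin-like fold, was also called lower in the Acb (-0.55 ± 0.18, adjusted p = 0.0250) and had -0.26 in the DS.

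Ndufa1, a membrane subunit needed for assembly, and Ndufc1 were not called in the unpaired test. Ndufa1 was read at 118, 113 and 126 CPM in total RNA of the wild-type Acb and 164, 78.8 and 84.0 CPM in heavy fractions, a wide spread around the same level. Its log2 loading was -0.17 ± 0.20 (SE, adjusted p = 0.584) in the Acb and -0.05 ± 0.19 (adjusted p = 0.910) in the DS. Ndufc1 had -0.44 in the Acb (edgeR, adjusted p = 0.0827, and 0.0165 with libraries paired by lysate) and -0.02 in the DS. Ndufv3, a small accessory subunit of the NADH-oxidizing module, had -0.23 and -0.33 and was not called either.

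Ndufa4, whose coding sequence above is 6 bases shorter than that of Ndufa3, behaved in the opposite way. It was read at 300, 389 and 376 CPM in total RNA of the wild-type Acb and 885, 576 and 859 CPM in heavy fractions. In the DS the levels were 385, 317 and 257 CPM in total RNA and 950, 524 and 1020 CPM in heavy fractions. Every heavy library exceeded every total library. Its log2 loading was 1.07 in the Acb and 1.38 in the DS, both called, the highest of the members up to 300 bases. Per kilobase of transcript, the mean level in wild-type total RNA was 553 CPM for Ndufa4 and 233 CPM for Ndufa3.

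**Figure D2:**
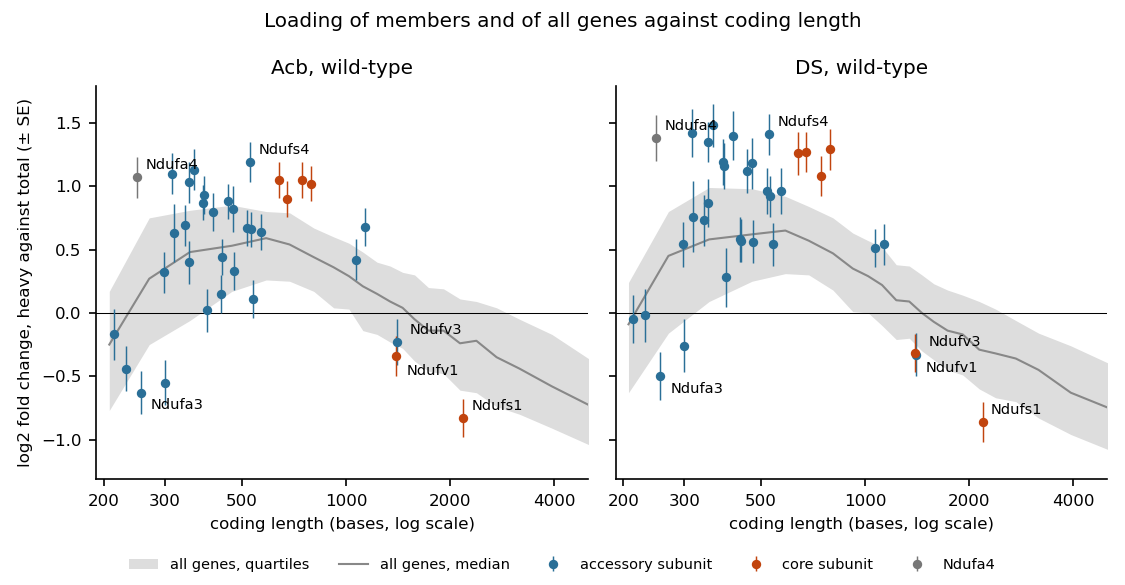
Log2 loading in wild-type Acb and DS against coding length (log scale) for 35 members (points, ± SE) and for all genes with at least 50 reads on average, binned by length (line, median; band, quartiles). Ndufa4 lies above the band at 249 bases, Ndufa3 (255 bases) and Ndufs1 (2184 bases) lie below it, and core subunits under 1000 bases lie above it.

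Over all genes the median loading was highest in the length bin centred on 588 bases and fell on both sides of it, and the members also peaked at middle lengths. The 12 members over 450 and up to 1000 bases had a median log2 loading of 0.85 in the Acb and 1.10 in the DS, where all genes of that length had 0.47 and 0.50. The 12 members tested of over 300 and up to 450 bases had 0.74 and 1.01, against 0.50 and 0.60 for all genes. The 7 members of up to 300 bases had -0.17 and -0.02, against 0.00 and 0.10, and the 6 members over 1000 bases had -0.01 in both regions, against 0.03 and 0.00 for all genes of over 1000 and up to 2200 bases. Because the relation rises and then falls, Spearman's rho of loading with coding length across the 37 members was 0.01 in the Acb and -0.16 in the DS, given as a description.

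When the trend on coding length was removed from every library, the members' median loading fell to 0.20 in the Acb and 0.37 in the DS. Of the members, 13 were then called higher and 5 lower in the Acb, against 7.97% and 9.50% of all genes with a length, and 15 higher and 3 lower in the DS, against 8.46% and 7.51%.

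Core and accessory subunits differed in coding length. Under 1000 bases no comparison at equal length was possible. There the core subunits had 639 to 792 coding bases, and the accessory ones of 450 to 1000 bases had 456 to 570. The 4 core subunits under 1000 bases had a median loading of 1.03 in the Acb and 1.27 in the DS, and the 8 accessory subunits of 450 to 1000 bases had 0.67 and 0.96. The 3 core subunits over 1000 bases had -0.34 and -0.32, and the 3 accessory ones had 0.42 and 0.51. Of these, core Ndufv1 and Ndufs1 had 1395 and 2184 coding bases, and accessory Ndufa10, Ndufa9 and Ndufv3 had 1068, 1134 and 1407. Ndufv1 and Ndufv3, close in length, had the loading given above. The 18 shorter members tested had 0.58 and 0.82, and the 19 longer ones 0.66 and 0.92.

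Genes of the same pathway are given from lists of symbols. Of 15 assembly factors in the table, 6 were called higher in heavy fractions of the Acb and 5 in those of the DS, with none lower, and their medians were 0.47 and 0.53. In complex II, 3 of 4 were higher and 1 lower in both regions. In complex III, 3 of 9 were higher and 1 lower in the Acb and 5 higher in the DS. In complex IV, 5 of 10 were higher in the Acb, and 6 were higher and 1 lower in the DS. In complex V, 10 of 15 were higher and 2 lower in the Acb, and 11 higher and 2 lower in the DS. The ATP synthase list had medians of 0.81 and 1.10.

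The loading of members kept its order between regions. Across the 37 members, Pearson's r between Acb and DS loading was 0.96, over libraries that are not shared between the regions. Across 15221 genes, including those with few reads, it was 0.34. Loading was higher in the DS for 34 of 37 members, and the median difference (Acb minus DS) was -0.29. Of all 15221 genes, 7693 were higher in the DS. The members were read in the same libraries, so their directions are not independent. With edgeR 0 members were called for this difference (0% of 16684 genes), 0 with DESeq2 (0.00599% of all genes), and 1 had an unadjusted p under 0.05, in the direction of lower loading in the Acb, where 2.88% of genes did. That member was Ndufb7, a membrane-arm subunit, with -0.63 ± 0.25 (SE, adjusted p = 1.0). The difference rested on which lysates were used: the members' median was -0.05 without DS replicate 3 and -0.43 without DS replicate 2.

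In total RNA the wild-type regions differed little. Ndufa13 and Ndufa5 were called higher in the Acb (6.54% of 15557 genes were), with log2 differences of 0.42 ± 0.13 and 0.43 ± 0.14 (SE, edgeR, adjusted p = 0.0234 and 0.0356). Ndufa5 was read at 153, 177 and 223 CPM in the Acb and 171, 138 and 108 CPM in the DS, so single libraries overlapped. Neither remained called without Acb replicate 2 or 3 or without DS replicate 3, and 1 was called without DS replicate 1 or 2. In heavy fractions 0 members were called between regions, against 8.15% of 16143 genes, and DESeq2 called 0, against 10.7%. There, 1 member had an unadjusted p under 0.05, against 9.09% of genes in the same direction: Ndufs3, lower in the Acb by -0.47 ± 0.17 (SE, adjusted p = 0.117). Without DS replicate 2, 10 members were lower at an unadjusted p under 0.05 and 1 was called.

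The genotype comparison asks whether complex I mRNAs depend on rpS6 phosphorylation in heavy fractions. In the Acb, most members had lower estimates in rpS6P-/- mice, and 5 of the 6 members over 1000 bases had higher ones. Of 37 members, 32 had a lower estimate, with a median log2 difference of -0.71, where the median of all genes was -0.01. With edgeR 0 members were called (0% of 16227 genes), while 29 had an unadjusted p under 0.05 and were lower, and 2 were higher, against 11.5% and 10.2% of all genes. DESeq2 called 24 members lower and 1 higher, against 2.96% and 2.90% of all genes. Leaving out the outlying rpS6P-/- replicate 3 gave a median of -0.49, with 25 members lower at an unadjusted p under 0.05.

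Ndufa3 had the lowest estimate. Its levels in heavy fractions of the Acb were 114, 88.8 and 65.5 CPM in wild-type and 52.6, 36.7 and 27.1 CPM in rpS6P-/- mice. The genotypes did not overlap, and the log2 difference was -1.17 ± 0.23 (SE, edgeR, adjusted p = 0.0983). Ndufa1 stood at 164, 78.8 and 84.0 CPM in wild-type and 65.7, 54.2 and 28.5 CPM in rpS6P-/- mice, again without overlap, a difference of -1.11 ± 0.29 (adjusted p = 0.101). Ndufa7, of the matrix arm, followed with 169, 116 and 136 CPM against 81.1, 74.9 and 42.4 CPM, a difference of -1.05 ± 0.22 (adjusted p = 0.0983).

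At the other end were core subunits over 1000 bases. Ndufv1 was read at 87.3, 134 and 89.6 CPM in wild-type and 139, 136 and 202 CPM in rpS6P-/- heavy fractions of the Acb, so that every knockin library lay above every wild-type one. The log2 difference was 0.66 ± 0.20 (SE, edgeR, adjusted p = 0.114), and DESeq2 called it (adjusted p = 0.0314). Ndufs1, the longest, had 0.28, and the accessory Ndufa9 and Ndufa10 had 0.10 and 0.14.

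Between these ends the estimates were ordered by coding length. The median log2 difference was -0.98 for the 7 members up to 300 bases, -0.78 for those of over 300 and up to 450, -0.54 for those of over 450 and up to 1000, and 0.21 for the 6 over 1000 bases. All genes of the corresponding lengths had -0.72, -0.55, -0.25 and, for over 1000 and up to 2200 bases, 0.11. Spearman's rho of the difference with coding length was 0.77 across the 37 members and 0.40 across 15138 genes, given as a description. The latter include coding sequences longer than any member's, so the values cover different ranges of length. With the length trend removed from every library the members' median fell to -0.17.

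**Figure D3:**
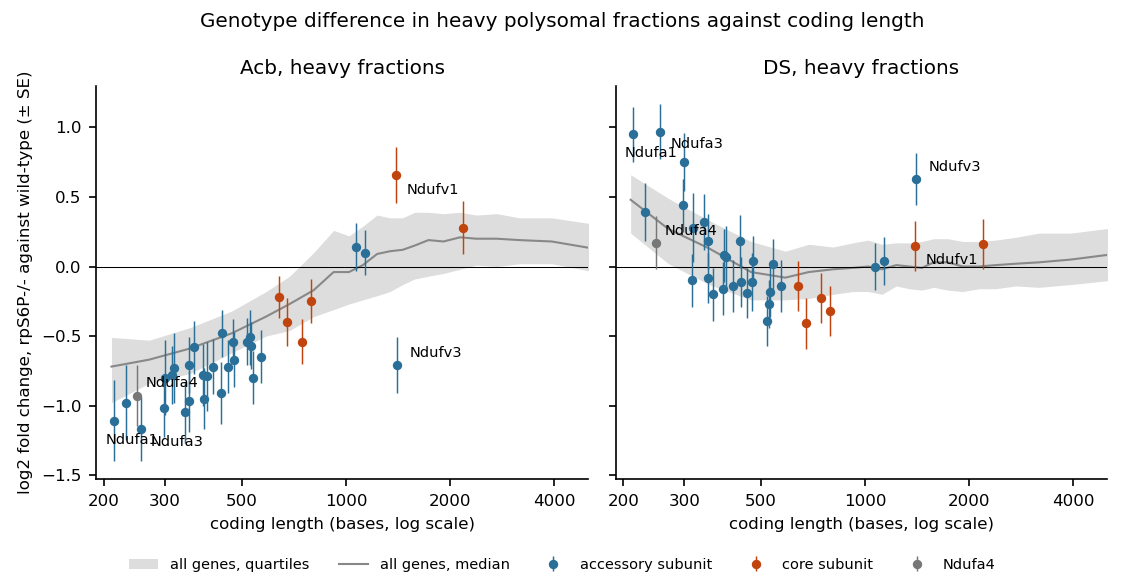
Log2 difference between rpS6P-/- and wild-type in heavy fractions against coding length (log scale), for 35 members (points, ± SE) and all genes with at least 50 reads on average, binned by length (line, median; band, quartiles). In the Acb the members run from -1.17 (Ndufa3) to 0.66 (Ndufv1) along the slope of all genes, in the DS the shortest reach 0.97 (Ndufa3), and Ndufv3 lies off the band in both.

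The core subunits, whose coding sequences are longer, had a median nearer 0 than the accessory ones. The median difference was -0.22 for the 7 core and -0.72 for the 28 accessory members tested. Among members under 1000 bases it was -0.33 for 4 core subunits (Ndufs8, Ndufs7, Ndufv2 and Ndufs3, -0.22 to -0.54) and -0.61 for the 8 accessory subunits of 450 to 1000 bases. Ndufs7, at -0.40 ± 0.17 (SE, adjusted p = 0.195), was the smallest decrease with an unadjusted p under 0.05.

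Ndufv3 left this order. Its longest coding transcript has 1407 bases, yet its levels in heavy fractions of the Acb were 90.5, 67.1 and 58.9 CPM in wild-type and 52.6, 41.8 and 35.0 CPM in rpS6P-/- mice. The genotypes did not overlap, and the log2 difference was -0.71 ± 0.20 (SE, adjusted p = 0.106). The annotation also holds a Ndufv3 transcript of 315 coding bases (chr17:31520115-31531331), which lacks the third coding exon of 1092 bases. Counts per gene do not separate the transcripts, and which of them was present was not tested.

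In the DS the shortest members had estimates in the other direction. The median over all members was 0.02, and 20 of 37 had a higher estimate. With edgeR 1 member was called higher (0.0315% of 15896 genes were), and at an unadjusted p under 0.05 there were 5 higher and 2 lower, against 3.70% and 2.72% of all genes. The 5 were Ndufa3, Ndufa1, Ndufa2, Ndufv3 and Ndufs6. The members of up to 300 bases had a median of 0.44 and all genes of that length 0.39, whereas members over 1000 bases had 0.09. Without wild-type replicate 2, whose heavy library had the lowest members' level of the DS (-0.19, against 0.43 in both others), the median over all members was -0.16, and 4 were higher and 8 lower at an unadjusted p under 0.05.

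The member called was Ndufa3, at 92.8, 53.9 and 79.2 CPM in wild-type and 118, 128 and 191 CPM in rpS6P-/- heavy fractions of the DS. All knockin libraries lay above all wild-type ones, and the log2 difference was 0.97 ± 0.20 (SE, edgeR, adjusted p = 0.0479). The call was lost without wild-type replicate 1 and without each rpS6P-/- replicate in turn, and 2 members were called without wild-type replicate 3. Ndufa1 had 91.7, 82.7 and 158 CPM against 187, 175 and 275 CPM, again without overlap, a difference of 0.95 ± 0.20 (adjusted p = 0.0690). Ndufv3 had 69.0, 52.1 and 72.7 CPM against 85.4, 90.8 and 122 CPM, a difference of 0.63 (adjusted p = 0.398). Ndufa2 had 0.75 and Ndufs6 0.44. The 2 lower at an unadjusted p under 0.05 were Ndufs7 (-0.41) and Ndufa8 (-0.39).

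Ndufa4 again differed from Ndufa3. In heavy fractions of the DS it was read at 950, 524 and 1020 CPM in wild-type and 839, 868 and 1080 CPM in rpS6P-/- mice, ranges that overlapped, with a difference of 0.17 ± 0.19 (SE, adjusted p = 0.956). In the Acb it had 885, 576 and 859 CPM against 451, 487 and 254 CPM, with no overlap and a difference of -0.93.

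**Figure D4:**
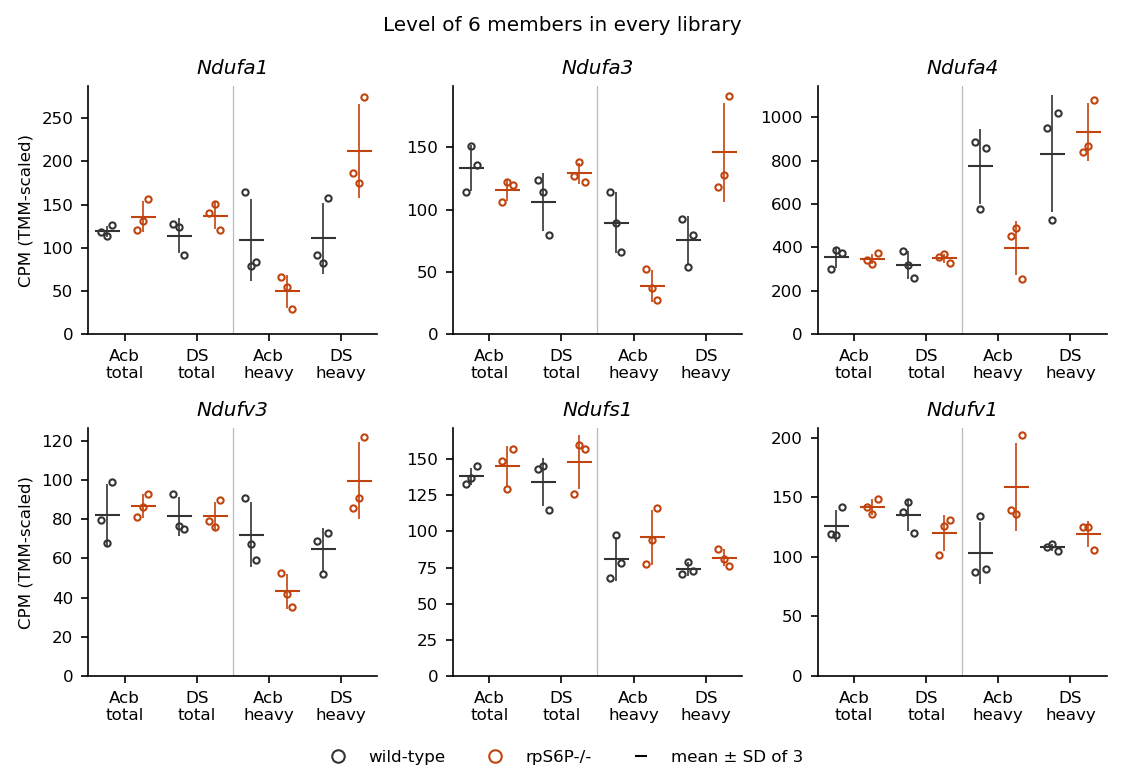
CPM of 6 members in all 24 libraries (circles), with the mean ± SD of 3 replicates per group; total RNA is left of the vertical line and heavy fractions right of it, wild-type in grey and rpS6P-/- in red. Ndufa1, Ndufa3 and Ndufv3 are lower in knockin Acb heavy fractions and higher in knockin DS heavy fractions, Ndufv1 is higher in knockin Acb heavy fractions, and total RNA differs little between genotypes.

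The genotype difference was compared between regions directly, in 1 fit over the 12 heavy libraries. Ndufa3 was called (Acb minus DS, log2 -2.12 ± 0.34, SE, edgeR, adjusted p = 0.0225), the only gene of 16880 that was (0.00592%). Ndufa1 had -2.04 ± 0.40 (adjusted p = 0.0518). At an unadjusted p under 0.05, 17 members were more negative in the Acb, against 7.49% of all genes, and the members' median was -0.56. The 18 shorter members had a median of -1.04 and the 19 longer ones of -0.22, whereas the 7 core subunits had 0.08. All genes of up to 300 bases had -1.10, and with the length trend removed 0 members were called and the median was -0.05.

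The call for Ndufa3 was lost when any of Acb wild-type replicate 1, Acb rpS6P-/- replicate 3, DS wild-type replicate 2, or DS rpS6P-/- replicates 2 and 3 was left out, while 5, 5, 8 and 7 members were called without Acb wild-type replicates 2 and 3, Acb rpS6P-/- replicate 1 and DS wild-type replicate 3. This difference and both genotype comparisons in heavy fractions share their libraries.

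**Figure D5:**
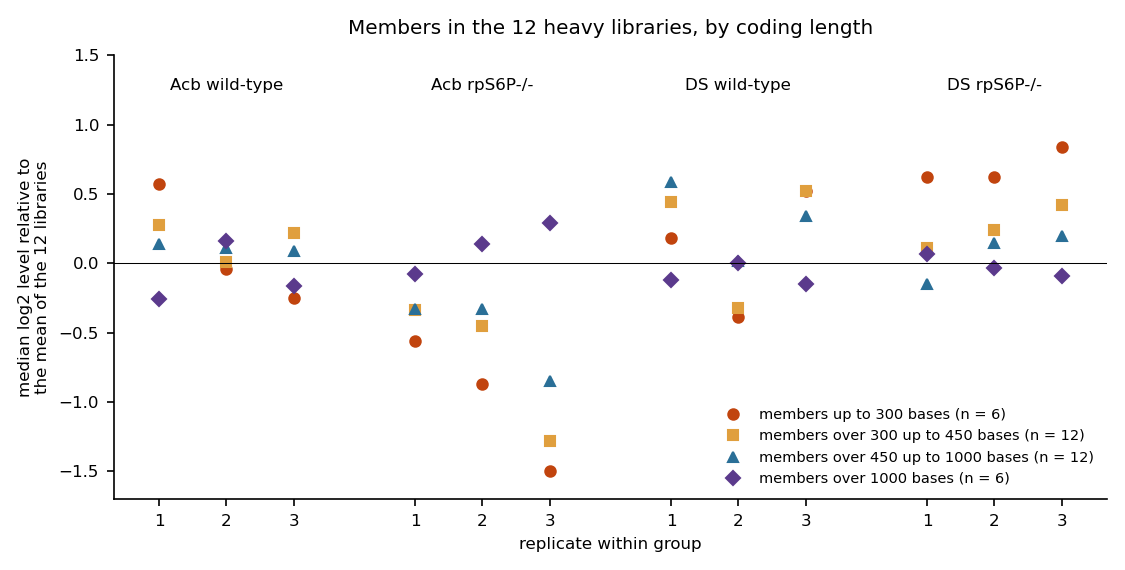
Median log2 level of members in each of the 12 heavy libraries, relative to the mean of these libraries, for 4 classes of coding length (n, genes per class). Members up to 300 bases lie lowest in the Acb rpS6P-/- libraries (-0.56, -0.87 and -1.50) and highest in the DS rpS6P-/- libraries (0.62, 0.62 and 0.84), while members over 1000 bases stay between -0.26 and 0.29.

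The shortest members also differed between libraries of a group. In heavy fractions of the Acb, the 6 members up to 300 bases with enough reads had medians of 0.57, -0.04 and -0.25 in wild-type libraries and -0.56, -0.87 and -1.50 in rpS6P-/- libraries. The genotypes did not overlap. In the DS they had 0.18, -0.39 and 0.52 in wild-type and 0.62, 0.62 and 0.84 in rpS6P-/- libraries. All genes of up to 300 bases had 0.44, -0.13 and -0.09 against -0.23, -0.59 and -1.12 in the Acb, and 0.28, -0.30 and 0.45 against 0.39, 0.40 and 0.70 in the DS. What sets this shift of short coding sequences between libraries was not tested.

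Of 7 oligodendrocyte markers, 4 were lower and 1 was higher at an unadjusted p under 0.05 in heavy fractions of the rpS6P-/- Acb, and the median difference was -0.43. Their summed level was 4560 to 5850 CPM in wild-type and 4600 to 4940 CPM in rpS6P-/- libraries, ranges that overlapped, with no marker at 0. Their part in the members' difference was not tested.

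Total RNA showed little of these differences. In the Acb the members' median genotype difference was -0.05. With edgeR 0 members were called (0.00650% of 15393 genes), 0 with DESeq2 (0.00650%), and 2 had an unadjusted p under 0.05 and were lower, against 1.69% of genes. These were Ndufa5 (-0.31 ± 0.14, SE) and Ndufb8 (-0.29 ± 0.14), both with an adjusted p of 1.0. Ndufa3 had -0.21 ± 0.14 and Ndufa1 0.19 ± 0.14. Their levels in rpS6P-/- total RNA were 106, 122 and 120 CPM and 121, 131 and 156 CPM, which overlapped the wild-type levels given above.

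In total RNA of the DS the median was -0.13. With edgeR 0 members were called (0.122% of 15601 genes) and DESeq2 called 1 (0.609% of genes). At an unadjusted p under 0.05, 8 were lower and 1 was higher, against 4.83% and 4.24% of all genes. DESeq2's call was Ndufb10, a membrane-arm subunit, at 128, 143 and 141 CPM in wild-type and 92.3, 105 and 111 CPM in rpS6P-/- mice without overlap (edgeR, -0.43 ± 0.12, SE, adjusted p = 0.130). Ndufab1 had 38.1, 32.8 and 41.2 CPM against 21.6, 26.4 and 23.0 CPM, the lowest estimate (-0.68 ± 0.19, adjusted p = 0.138), and Ndufa6 had -0.59 ± 0.18 (adjusted p = 0.179). The smallest differences among the 8 were Ndufs3 (-0.34) and Ndufv2 (-0.32), and Ndufa3 was the 1 higher (0.26 ± 0.13, adjusted p = 0.536). Ndufa1 had 0.24 ± 0.12 (adjusted p = 0.553).

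Set against total RNA of the same region in a fit without pairing, the genotype difference in loading of the Acb had a median of -0.61. With edgeR 0 members were called (0% of 16687 genes) and 0 with DESeq2 (0.0180%), while 24 members were lower and 2 higher at an unadjusted p under 0.05, against 6.16% and 5.78% of genes. With heavy and total library paired by lysate, 9 members were called lower, against 0.503% of genes: Ndufa1, Ndufa3, Ndufa4, Ndufa7, Ndufa13, Ndufb4, Ndufb11, Ndufc1 and Ndufs6. Unpaired estimates were -1.31 ± 0.30 (SE) for Ndufa1, -1.02 ± 0.31 for Ndufc1, -0.98 ± 0.27 for Ndufs6 and -0.97 ± 0.27 for Ndufa3, all with an adjusted p of 0.216 to 0.243. At the other end stood Ndufv1 with 0.49 ± 0.24 and, among the decreases, Ndufv2 with -0.45 ± 0.22.

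In single lysates, the members' median loading in the Acb was 0.81, 0.59 and 0.44 in wild-type and 0.19, 0.40 and -0.62 in rpS6P-/- mice. Every knockin lysate thus lay below every wild-type lysate. The same held for all genes of over 300 and up to 450 coding bases (0.76, 0.33 and 0.57 against 0.17, 0.10 and -0.51). It also held for those of over 450 and up to 1000 (0.58, 0.47 and 0.48 against 0.39, 0.40 and 0.15). The core subunits had 1.01, 1.0 and 0.83 against 0.83, 0.90 and 0.31. With the length trend removed from every library, the members' median difference in loading was -0.21 and 0 members were called. Without rpS6P-/- replicate 3, the median difference in loading was -0.34 and 11 members were lower at an unadjusted p under 0.05, and 3 members were called without rpS6P-/- replicate 1. Spearman's rho of the difference with coding length was 0.81 across the 37 members and 0.27 across 15454 genes, which include longer coding sequences.

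In the DS the median difference in loading between genotypes was 0.07. With edgeR 0 members were called (0% of 16544 genes) and 0 with DESeq2 (0%), while 6 members were higher at an unadjusted p under 0.05, against 2.73% of genes. These were Ndufa3 (0.67 ± 0.25, SE), Ndufa1 (0.67 ± 0.25), Ndufa6 (0.63 ± 0.30), Ndufv3 (0.62 ± 0.23), Ndufa2 (0.61 ± 0.26) and Ndufs6 (0.51 ± 0.23), with adjusted p from 0.969 to 1.0. Without wild-type replicate 3, 1 member was called. The loading and genotype comparisons of a region share their heavy libraries, so these values are given side by side and are not independent of those above.

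The lists for the other complexes and the assembly factors also had negative median genotype differences in heavy fractions of the Acb. With edgeR 0 of their genes were called (0% of 16227 genes). These medians are not adjusted for coding length. The median was -0.88 for complex III, -0.90 for complex IV, -0.53 for complex V, -0.45 for complex II and -0.22 for the assembly factors, beside -0.71 for complex I. In heavy fractions of the DS these medians were 0.09, 0.33, -0.13, -0.19 and 0.00, beside 0.02.

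Some members share sequence with other loci, which limits what their counts mean. The share of 50-base windows of the longest transcript that occur exactly in transcripts of other genes was 37% for Ndufb4, 35.8% for Ndufs3, 26.2% for Ndufa12, 12.3% for Ndufab1 and under 10% for the others with reads. Ndufa3, Ndufa1, Ndufa4, Ndufs1, Ndufs4, Ndufv1 and Ndufv3 had at most 0.0635%. Ndufs5, with 31.1% of its windows found in a processed pseudogene, had 0 reads in all 24 libraries and was not tested. A count of 0 allows up to 3 reads, or 0.0783 to 0.361 CPM depending on the library, counting error only. This bounds the count and not the level of Ndufs5 mRNA, because how reads were assigned between gene and pseudogene was not tested.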

How the data were processed

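Libraries were poly(A)-selected and strand-specific. According to the submitters' processing notes, reads were handled with CASAVA 1.8.2, FastQC, TopHat2 2.0.13, Bowtie2 2.2.3 and HTSeq 0.6.1p1 on mm10, and the authors deposited raw read counts per gene, with no normalization. From these counts, genes with fewer than 15 reads summed over a comparison were removed, and edgeR 4.0.16 (R 4.3.3, limma 3.58.1) was used for TMM scaling and quasi-likelihood tests without a block. Benjamini-Hochberg adjustment covered all genes tested, and a gene was called at an adjusted p under 0.05. DESeq2 1.42.0, other filters and scalings, a loess trend (span 0.5) on coding length removed from each library, and the omission of each replicate were the alternatives. The edgeR test was checked on simulated counts for wild-type loading in the Acb and between regions. It was also checked for genotype in heavy Acb fractions, by fraction in the Acb and by region in heavy fractions. The other comparisons and the alternatives were not simulated. Every difference is relative to the trimmed mean of all genes.

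Replicates are separate pools of mice. Where the mean count was 50 or more, at most 0.576% of genes had identical counts in a pair of replicates, so no library was counted as a copy. Heavy and total libraries with the same number were taken as a pair, called a lysate here. The labels give only the shared number, and the paper describes a replicate as combined heavy fractions of more than 1 sample. Deviations of the paired libraries from the group means correlated by -0.0460 to 0.0767 over 12 lysates. Full statistics were given for the 3 members with the highest and the 3 with the lowest log2 difference among those called, or among those with an unadjusted p under 0.05 where none was called, and for Ndufa1 and Ndufa3. The paper names Ndufa1 and Ndufa3 among genes that differed between genotypes in heavy DS fractions of these data. Other members and groups, such as Ndufa4, Ndufv3 and the length classes, were described after their values were seen. The members and lists were chosen with earlier results of these data known. Intervals for counts of 0 cover counting error only. Values of 1 member are not reported here, though it counts in the totals and medians.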

Additional observations from a re-analysis of the deposited data

Results flagged for a closer look

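The genotype difference of Ndufa3 in heavy fractions differed between regions, by the interaction of genotype and region in 1 fit over 12 libraries. It was -2.12 ± 0.34 (log2, Acb minus DS, SE, edgeR, adjusted p = 0.0225), from -1.17 in the Acb and 0.97 in the DS. In both regions the genotypes did not overlap in any of the 3 libraries each. With the coding length trend removed, 0 members were called. The part of the shift of all short coding sequences between these libraries in the value for Ndufa3 was not tested.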

How the results depend on the processing

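Over the settings run, 115 of 168 counts of members called stayed within 1.5 times the reported count and 160 of 168 members' medians moved by less than the spread between replicates. Of 793 fold changes of named members, 688 kept direction and side of the threshold, 52 passed it newly, 40 lost it and 13 changed sign. Why settings moved a value was not tested. Where no share of all genes is given for a setting, its count does not show whether the members stood out from other genes.

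With the coding length trend removed, and with the trend removed together with the replicate block, the members' medians were 0.20 and 0.22 for loading in the Acb, 0.37 and 0.37 for loading in the DS, -0.17 and -0.18 for genotype in heavy Acb fractions, and -0.05 and -0.07 for genotype by region. The counts called with the trend removed were 18 for loading in the DS, 0 for genotype in heavy DS fractions, 0 by region, and 1 each for the wild-type regions in total and in heavy RNA. With trend and block they were 1 for genotype in heavy Acb fractions, 1 by fraction in the Acb, 3 by region and 1 for regions in heavy RNA. Ndufa1 between regions in total RNA turned to -0.01 with the trend removed and to 0.00 with trend and block.

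With the replicate block alone, 8 members were called for genotype in heavy Acb fractions, 3 in heavy DS fractions, 1 in total RNA of the DS, 9 by fraction in the Acb, 14 by region and 1 for regions in heavy RNA. Apart from the lysates, the numbers are only shared between groups and do not pair libraries by design. Without a filter beyond 1 read the counts were 21, 3, 1, 9 and 11 for genotype in heavy Acb, heavy DS and total DS, by fraction in the Acb and by region. DESeq2 gave 25, 2 and 1 for genotype in heavy Acb, heavy DS and total DS, 6 by region and 1 for regions in total RNA. Of all genes, the block called 0.503% lower by fraction in the Acb. DESeq2 called 2.96% lower and 2.90% higher for genotype in heavy Acb, and 0.609% in total DS. filterByExpr gave 0 for genotype in heavy DS, 0 by region and 1 for regions in total RNA, DESeq2 size factors gave 0 for heavy DS, and edgeR's bias-adjusted test gave 4 by region.

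With each replicate left out in turn, counts ranged from 17 to 28 for loading in the DS, 0 to 2 for genotype in heavy DS fractions, 0 to 3 by fraction in the Acb, 0 to 1 by fraction in the DS, 0 to 8 by region, 0 to 3 for regions in total RNA and 0 to 1 in heavy RNA. Signs changed for Ndufa1 in loading (-0.61 to 0.03 in the Acb, -0.53 to 0.19 in the DS, -0.58 to 0.41 between regions) and between regions in total (-0.05 to 0.17) and heavy RNA (-0.44 to 0.32), and for Ndufa3 in loading between regions (-0.47 to 0.13).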

Other observations

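Ndufs5 itself had no reads, while its processed pseudogene BC002163 had 130 to 3202 reads per library. The pseudogene's log2 loading was 1.02 ± 0.36 (SE, edgeR, adjusted p = 0.0365) in the wild-type Acb and 1.52 ± 0.33 (adjusted p = 7.71e-04) in the wild-type DS. Its genotype difference in heavy fractions was -0.84 ± 0.30 in the Acb (adjusted p = 0.139) and 0.80 ± 0.26 in the DS (adjusted p = 0.485). Whether these reads came from Ndufs5 mRNA was not tested.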
